A study of Mus musculus with 23 samples.

Results

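Gamma-delta (γδ) T cells of the mouse lymph node (LN) were picked from single-cell expression libraries as cell barcodes that held at least 200 detected genes, at most 10% mitochondrial UMIs, at least 1 UMI of Trdc (the constant segment of the T-cell receptor δ chain), at least 1 UMI of Cd3d, Cd3e or Cd3g, no UMI of the B-cell gene Cd79a, and no αβ T-cell receptor contig in the receptor library of the same genotype and replicate. A UMI (unique molecular identifier) marks 1 captured RNA molecule. This left 118 members of 25517 LN T cell barcodes and of 139967 barcodes in the whole series. The members were thus chosen by their own Trdc, CD3 and Cd79a counts, which are given below as a description only.

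The LN libraries came from C57BL/6 mice of 2 months with 3 Stat5b genotypes: WT (2 libraries), Y665F het (3 libraries) and Y665F homo (2 libraries). In Y665F mice the tyrosine in the SH2 domain of STAT5B that gives the allele its name is replaced by phenylalanine through CRISPR/Cas9 editing of the germline with an oligonucleotide donor, so that every cell of the animal carries the allele. Each library has a matched αβ receptor library. The labels give the strain as C57BL/6, and the study's methods name C57BL/6N for the mice that were edited. The labels do not say whether a library is 1 mouse or a pool, so the p-values below measure the spread between libraries. A legend in the study names lymph nodes and 1 combined sample of several mice per group, but its figure is titled for the spleen. As the LN has 2 or 3 libraries per genotype, it is unclear whether that legend describes them.

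γδ T cells carry a receptor made of a γ and a δ chain instead of the α and β chains of conventional T cells. In mice the V segments they use go with where they live and what they make: cells with the invariant Vγ6Vδ1 pair are innate-like cells that settle in tissues, whereas many circulating γδ T cells of lymphoid organs express Cd27 and lean to interferon-γ and cytotoxic genes (type-1 cells). STAT5 carries signals of interleukin 2, interleukin 7 and interleukin 15, and interleukin 7 acting through STAT5 is needed for the γ chain locus to rearrange.

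The receptor segments were the first check of the label, since no γ segment and no δ V segment was in the rule. The ends of the germline V segments that recur in the results are shown because they name the receptors the members use. Each is the last 60 coding bases of the segment, 5′ to 3′ on the gene's own strand, from the GENCODE vM21 transcripts (build GRCm38), and the capitals mark the codon of the conserved cysteine that opens the junction (CDR3), which goes on into a J segment in the γ chain and into D and J segments in the δ chain. The stretches lie at chr13:19336573-19336632 (minus strand, Trgv2), chr13:19340395-19340454 (plus, Tcrg-V1), chr13:19185447-19185506 (plus, Tcrg-V4), chr13:19190870-19190929 (plus, Tcrg-V6), chr14:54148662-54148721 (minus, Trdv5) and chr14:54075456-54075515 (plus, Trdv4), each in the last exon of its gene.
Trgv2: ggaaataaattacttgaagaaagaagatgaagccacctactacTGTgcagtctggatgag
Tcrg-V1: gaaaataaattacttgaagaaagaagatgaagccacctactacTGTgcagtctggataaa
Tcrg-V4: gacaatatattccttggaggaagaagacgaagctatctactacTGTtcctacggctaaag
Tcrg-V6: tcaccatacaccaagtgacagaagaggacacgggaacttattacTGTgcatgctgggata
Trdv5: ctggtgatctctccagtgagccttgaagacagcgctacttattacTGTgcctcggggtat
Trdv4: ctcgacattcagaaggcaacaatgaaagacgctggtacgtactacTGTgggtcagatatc

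A γ segment was found in 76 of 118 members (64.4%), against 241 of 24175 αβ T cells (0.997%) and 3 of 9706 B cells (0.0309%). A Trdv segment was found in 51 members (43.2%), against 211 αβ T cells (0.873%) and 3 B cells. The median depth was 1351 UMIs in members, 1175 in αβ T cells and 809 in B cells per cell. A γ or Trdv segment was found in 92 members (78.0%), against 447 αβ T cells (1.85%). Counting also the δ V segments that are shared with the α chain, 101 of 118 members (85.6%) had at least 1 segment beside Trdc. That wider count was not made in αβ T cells, which also held UMIs of the shared segments (175 of Trav13-4-dv7).

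Trgv2 was the γ V segment found in most members (36 of 118), followed by Tcrg-V1 (17), Tcrg-V4 (13), Tcrg-V6 (7) and Tcrg-V3 (1), while Tcrg-V5 and Tcrg-V7 had no UMI. Trgv2 and Tcrg-V1 are near copies in the stretch shown above, with the same base at 57 of 60 positions, and 8 members had UMIs of both, so the split of reads between this pair is uncertain. Among δ V segments, Trdv5 was found in 29 members, Trav13-4-dv7 in 13, Trdv2-2 in 12, Trdv4 and Trav15-1-dv6-1 in 8 each, Trav15-2-dv6-2 in 7, Trdv1 in 3, Trav15d-1-dv6d-1 and Trav21-dv12 in 2 each and Trav14d-3-dv8 in 1. Trdv5 overlaps Trdc on the opposite strand in the annotation, and the Trav15 copies resemble each other, so these counts are uncertain too. Of the γ constant segments, Tcrg-C4 was found in 23 members, Tcrg-C1 in 20 and Tcrg-C2 in 16.

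Some segments were found together more than others, given here as counts with no test. Tcrg-V6 and Trdv4 (the δ V segment of the invariant Vγ6Vδ1 receptor) were found together in 6 cells, out of 7 cells with Tcrg-V6 and 8 with Trdv4. Of the 7 Tcrg-V6 cells, 3 also had Trgv2 and 1 had Tcrg-V4, and none had a Trdv5 or Tcrg-V1 UMI. Trgv2 was also found in 4 of the 8 Trdv4 cells. Tcrg-V6 was found in 5 WT 2 cells, 1 het 1 cell and 1 homo 2 cell, and in no cell of the other 4 libraries. Trdv5 was found in every library, in 3 and 5 WT, 9, 9 and 1 het and 1 and 1 homo cells.

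**Figure D1:**
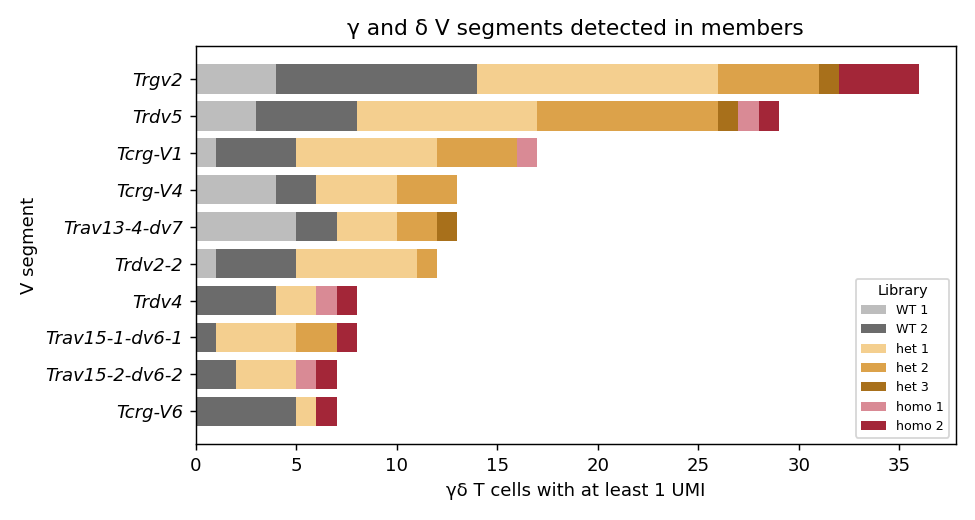
Number of γδ T cells with at least 1 UMI of each γ or δ V segment found in 7 or more members, with bars stacked by LN library. Trgv2 (36 cells) and Trdv5 (29 cells) lead and come from nearly all libraries, while Tcrg-V6 (7 cells) comes mostly from WT 2.

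The genes of the rule had few UMIs. Trdc (chr14:54142851-54148868, plus strand) had 217 UMIs over the 118 members and at most 7 in a cell. By library it had 26 and 63 UMIs in WT, 69, 31 and 6 in het, then 7 and 15 in homo. Cd3e, Cd3d and Cd3g, which encode the chains that carry the receptor's signal, had 216, 208 and 184 UMIs. At the edges of the rule, 70 members had exactly 1 Trdc UMI, 1 further barcode had under 200 genes, 4 had a Cd79a UMI and 13 had no CD3 UMI, whereas no barcode missed on mitochondrial share. The members' own fewest genes were 214. A further 109 Trdc-positive, CD3-positive barcodes carried an αβ contig and were left out, and 41 of them (37.6%) had a γ segment or a Trdv segment, against 78.0% of members by the same count.

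Of the αβ T cell markers, Trac and the coreceptors were lower in members than in αβ T cells, whereas of the β chain constant genes Trbc1 was higher and Trbc2 was close to the αβ level. Pooled CPM (UMIs scaled to a common total) was 90.4 in members and 252.1 in αβ T cells for Trac and 10.0 and 122.9 for Cd4, against 125.6 and 82.5 for Trbc1 and 195.9 and 208.0 for Trbc2. Trac, the α chain constant gene, had a UMI in 14 members, Trbc1 or Trbc2 in 39, Cd4 in 2 and Cd8a or Cd8b1 in 14, and 70 members had neither Trac nor a Trbc UMI. At least 1 of the 6 αβ markers was found in 57 members (48.3%). Summed over the 6 αβ markers, the level was 507.8 to 706.8 CPM in WT, 540.2 to 645.9 in het and 205.7 to 707.7 in homo. Dendritic cell markers (4 genes) and haemoglobin genes (3) had no UMI. Of the B-cell markers, Ms4a1, Ighd and Ebf1 were also at 0, but at least 1 of the 4 with a UMI was found in 36 members (30.5%). Ighm was found in 28 members, Cd79b and Cd74 in 8 each and H2-Aa in 4. These 4 summed to 235.6 to 859.4 CPM in WT, 0 to 307.7 in het and 0 to 137.1 in homo. Of 7 natural killer markers Klra8 and Klra4 were at 0, and the summed level was 39.1 to 235.6 CPM in WT, 34.2 to 540.2 in het and 205.7 to 353.9 in homo. Innate lymphoid markers (3 of 6 with a UMI), regulatory T cell markers (2 of 3), plasma cell markers (2 of 4), myeloid markers (3 of 8) and stroma markers (1 of 4) were found in 9, 17, 12, 16 and 7 members. The part of these markers in the results below was not tested.

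Depth differed between libraries and was lowest in het 3 and homo 1, whose median barcodes held 368 and 395 UMIs against 874 to 3116 in the other 5. The members summed to 16979 and 51198 UMIs in WT, 80505, 29247 and 3702 in het, then 2826 and 14583 in homo. In het 3 and homo 1, 3 UMIs are therefore worth 810.4 and 1062 CPM, and most genes cannot be detected there. Pairs of libraries shared 26 to 91 barcodes, and 3 members had a barcode that also occurs in another library, in no case as a member.

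γδ T cells were rare in every LN library, and no order of their share over the 3 genotypes was detected. WT 1 held 16 members of 3072 T cell barcodes (0.521%, exact 95% binomial interval 0.298 to 0.844) and WT 2 held 31 of 5844 (0.530%, 0.361 to 0.752). Het 1 held 27 of 3654 (0.739%, 0.487 to 1.07), het 2 held 19 of 3263 (0.582%, 0.351 to 0.908) and het 3 held 6 of 2821 (0.213%, 0.0781 to 0.462). Homo 1 held 7 of 3110 (0.225%, 0.0905 to 0.463) and homo 2 held 12 of 3753 (0.320%, 0.165 to 0.558). Both homo libraries were below both WT libraries, but het 3 was lower still and het 1 and het 2 were higher than WT. The het libraries thus span both other genotypes, while WT and homo do not overlap.

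The mean share was 0.526% ± 0.00681 (SD, n = 2) in WT, 0.511% ± 0.270 (n = 3) in het and 0.272% ± 0.0669 (n = 2) in homo. A two-sided exact Jonckheere-Terpstra permutation test for an order WT, het, homo gave p = 0.648 over 7 libraries, where the smallest possible p is 0.00952. The 2 libraries of lowest depth, het 3 and homo 1, were also the 2 of lowest share, and the part of depth in this was not tested beyond the thinning that follows. After thinning each barcode to 400 UMIs the means were 0.296%, 0.263% and 0.131%, with the same exact permutation p of 0.648. Intervals cover counting error only.

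The Trdc background was taken from B cells as a rate per barcode, whereas members are drawn only from T cell barcodes without a contig. No B cell had a Trdc UMI in 6 libraries, which allows a share of at most 0.103% in WT 1 and 0.466% in homo 1, and 1 of 817 B cells had one in homo 2. The limit lay below the members' share of all T cell barcodes in WT 1, WT 2, het 1 and het 2. It lay above that share in het 3 (0.412% against 0.213%) and homo 1 (0.466% against 0.225%), but that share is an unlike measure. Trdc was found in 5.77% of T cell barcodes without a contig in het 3 and 7% in homo 1. In all 6 libraries with no such B cell the limit lay below this rate. The median depth of B cells, 297 to 1941 UMIs per library, was below the members' 376 to 2947. Among T cell barcodes, 91.9% to 96.8% had an αβ contig, and Trdc was found in 0.133% to 0.859% of those, against 5.77% to 16.8% of T cell barcodes without a contig.

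**Figure D2:**
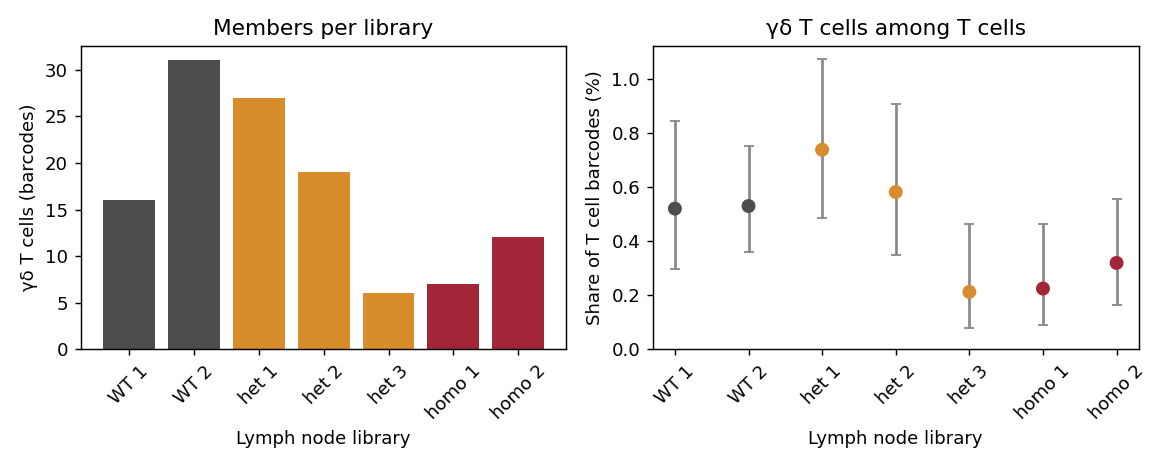
Left, number of γδ T cells in each of the 7 LN libraries. Right, their share of T cell barcodes in percent with exact 95% binomial intervals. Homo 1, homo 2 and het 3 lie at 0.225%, 0.320% and 0.213%, the other 4 libraries between 0.521% and 0.739%.

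Within the members, a small group of cells shared a set of genes known from innate-like γδ T cells. Of 8 core genes (Sox13, Maf, Blk, Il23r, Il1r1, Ccr6, Cd163l1 and 5830411N06Rik), 11 cells had UMIs of 3 or more, 16 cells of 1 or 2, and 91 of none. The cut at 3 was set after the data were seen and makes a range, not a type. The 11 cells came from WT 2 (7), het 1 (2) and homo 2 (2), and none from WT 1, het 2, het 3 or homo 1. They were deeper than the rest, with a median of 2947 against 1274 UMIs. All values of this split describe cells grouped by their own counts and carry no test.

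The core genes define these cells, so their counts follow from that choice and are given as a description only. Blk, a kinase of B cells and some γδ T cells, had 31 UMIs in 10 of the 11 cells and none in the 107 others. Maf, a transcription factor of T cells, was found in 10 of 11 and 2 of 107. Cd163l1, a scavenger receptor family member known from γδ T cells, was found in 8 of 11 and 6 of 107. Ccr6, a chemokine receptor, and Il23r, the receptor of interleukin 23, were found in 7 and 5 of the 11 and in no other member.

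The 6 cells with Tcrg-V6 and Trdv4 together were all in this group. Cell by cell, Tcrg-V6 had 5, 10, 2 and 5 UMIs in WT 2, 11 in het 1 and 3 in homo 2, and Trdv4 had 4, 13, 3 and 6, then 8, then 1 UMIs in the same cells. Each of these 6 cells had at least 2 Cd163l1 UMIs. Of the other 5 cells of the group, none had a Tcrg-V6 or Trdv4 UMI. The V segments of the bulk of members were spread over both groups, as Trgv2 was found in 4 of 11 and 32 of 107 and Trdv5 in 4 of 11 and 25 of 107, whereas Tcrg-V1 was found in 0 of 11 and 17 of 107.

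Other genes, picked after their values were seen, were also found more often in the 11 cells. S100a4, a calcium-binding protein of motile cells, was found in 11 of 11 cells at 2681 CPM and in 2 of 107 others at 12.1 CPM. S100a6 was at 4199.7 against 344.5 CPM, Lgals1 (galectin 1) at 3187 against 308.2, the intermediate filament Vim at 2532 against 417.0, and the chemokine receptor Cxcr6 at 1102 against 90.7. Cd44, a marker of experienced T cells, was found in 8 of 11 and 3 of 107. Ccr2, Tmem176a and Tmem176b were found in 7, 9 and 10 of 11 and in 1, 3 and 5 of 107. At an equal depth of 400 UMIs per cell the counts were 8 of 11 and 12 of 101 for Vim, 7 of 11 and 12 of 101 for S100a6, 7 of 11 and 5 of 101 for Lgals1, and 5 of 11 and 1 of 101 for Cxcr6. For Cd44 (0 of 11 and 1 of 101), Tmem176b (1 and 1), Tmem176a (2 and 1) and Ccr2 (2 and 1) too few cells were left to compare. Of the core genes, Blk and Maf were found in 4 of 11 and 0 of 101 each and Cd163l1 in 2 of 11 and 5 of 101. Cells in cycle were here as well, since the 4 members with Mki67 or Top2a UMIs were all WT 2 cells of this group.

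Several type-1 and naive genes were found in the other 107 members and in none of the 11 cells, while other naive genes were found in both. Nkg7, a cytotoxic granule protein, was found in 72 of 107 and 0 of 11. Ccl5 (a chemokine of effector lymphocytes), Ly6c2, Lef1, Cd27, Id3 and Klrd1 were found in 48, 45, 43, 35, 35 and 27 of 107, and in 0 of 11 each. At 33574 UMIs summed over the 11 cells, 3 UMIs are worth 89.4 CPM, against 3028 CPM of Ccl5 and 1106 of Nkg7 in the others. After thinning to 400 UMIs (6 shallower cells, all in the larger group, left out), Nkg7 was found in 35 of 101 and Ccl5 in 38 of 101, and each in 0 of 11. S100a4 was found in 8 of 11 and 1 of 101 on the thinned counts. Of the naive genes found on both sides, Tcf7 was found in 5 of 11 and 56 of 107, Klf2 in 7 of 11 and 67 of 107 (714.8 against 918.6 CPM), and Il7r, the receptor of interleukin 7, in 9 of 11 and 41 of 107 (1191 against 471.4 CPM).

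Over the pooled members, Ly6c2 was found more often with Ccl5 than without it, given here with no test and no match for depth. Ly6c2 was found in 34 of 48 cells with Ccl5 and in 11 of 70 without. Nkg7 was found in 37 of 48 and 35 of 70. The 70 include the 11 cells of 3 or more core genes, which had no UMI of these genes. In homo 1, Ly6c2 was found in 0 of 2 Ccl5 cells and in 2 cells without Ccl5, while every other library went the way of the pool. Tbx21 and Eomes, the factors of type-1 lymphocytes, were found in 9 and 12 members, and Ifng in 10.

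**Figure D3:**
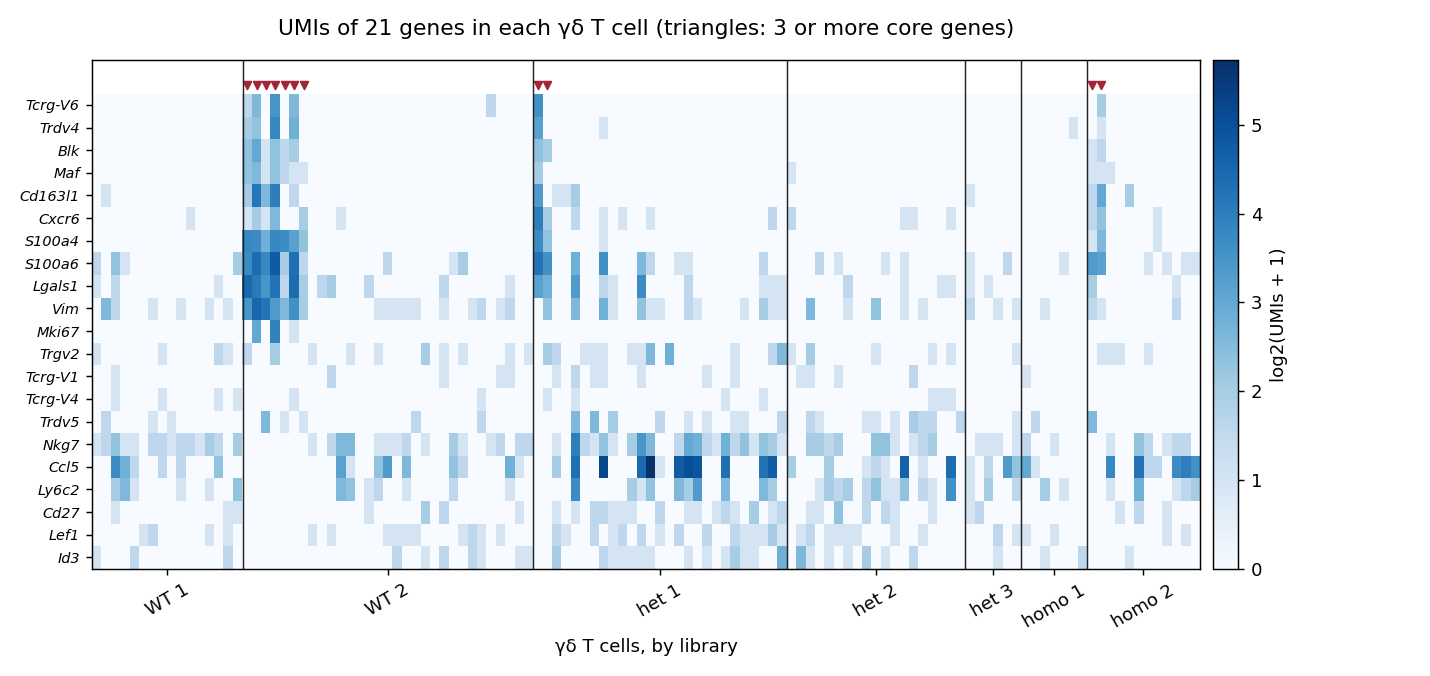
UMIs of 21 genes (rows) in each of the 118 γδ T cells (columns, grouped by LN library and ordered within it by the number of core genes), as log2(UMIs + 1). Triangles mark the 11 cells with 3 or more core genes, which fill the upper rows in WT 2, het 1 and homo 2 and are empty for Nkg7, Ccl5, Ly6c2, Cd27, Lef1 and Id3.

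Set beside αβ T cells of the same libraries, the pooled members had higher levels of some genes and lower levels of others, of which the following were picked after their values were seen. Pooled CPM was 994.8 in members and 75.2 in αβ T cells for S100a6, 351.7 and 16.8 for Cd163l1, 155.7 and 0.325 for Blk, 261.3 and 50.8 for Cxcr6, 175.8 and 27.4 for the gut homing receptor Ccr9, and 2517 and 751.6 for Ccl5. It was 115.6 and 667.9 for Cd8b1, 40.2 and 349.4 for Cd8a, 195.9 and 692.4 for Igfbp4 and 70.3 and 278.1 for Cd5. The 11 cells of 3 or more core genes held all 31 Blk UMIs of members, 60 of 70 Cd163l1 UMIs and 141 of 198 S100a6 UMIs, and Cd163l1 was at 0 in members of het 2 and homo 1. This contrast shares the rule's own split, so it was not tested.

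Ccl5 (chr11:83525778-83530518, minus strand) was the gene that rose with the Y665F allele in γδ T cells. It was at 1649 and 781.3 CPM in WT, at 3490.5, 1880.5 and 4322 in het and at 2831 and 5006 in homo. All 5 Y665F libraries were above both WT libraries, which held for 19 of 269 genes tested (7.06%) in the upward and 11 (4.09%) in the downward direction. The log2 fold change was 1.91 ± 0.37 (SE) for homo vs WT (adjusted p = 0.0120, edgeR quasi-likelihood test with Benjamini-Hochberg adjustment) and 1.36 ± 0.32 for het vs WT (adjusted p = 0.0412). The counts behind single libraries were small, as Ccl5 had 28 and 40 UMIs in WT, 281, 55 and 16 in het, then 8 and 73 in homo.

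The share of members with a Ccl5 UMI overlapped between genotypes. It was 6 of 16 and 9 of 31 in WT, 12 of 27, 8 of 19 and 4 of 6 in het, and 2 of 7 and 7 of 12 in homo. The most Ccl5 UMIs in a cell were 12 and 9 in WT, 52, 24 and 9 in het, then 7 and 18 in homo. B cells of the same libraries held 0 to 54.8 CPM. Over 16 alternatives the homo vs WT change stayed above 0, between 0.81 and 2.43, and the call was lost in 9. It fell to 0.81 ± 0.72 without homo 2 (adjusted p = 0.682, edgeR), 1.23 ± 0.47 without WT 2 (0.637) and 1.23 ± 0.78 without a low count filter (0.894). The call was also lost with little change in size without het 1 (1.84, adjusted p = 0.0801), het 3 (1.94, 0.0988) or het 3 and homo 1 together (2.16, 0.118), with DESeq2 (1.72, 0.246), with at least 2 Trdc UMIs (2.21, 0.441), which leaves no member in het 3 and homo 1 and 3 in homo 2, and without the 11 cells of 3 or more core genes, which have no Ccl5 UMI (1.76, 0.216). The het vs WT call was lost in 10 of 16 alternatives, with changes between 0.56 (at least 2 Trdc UMIs, adjusted p = 0.953, edgeR) and 1.34. Over all 16 the highest change was 1.89, and without WT 2 it was 0.75.

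In αβ T cells Ccl5 rose as well. Among those with a Cd8a or Cd8b1 UMI and no Cd4 UMI (CD8), it was at 273.3 and 209.2 CPM in WT, 1293, 991.2 and 1627 in het, then 2002.5 and 2838 in homo, below the γδ T cells of the same library in each of the 7. Over all αβ T cells the log2 fold change was 3.28 ± 0.23 for homo vs WT (adjusted p = 4.11e-06) and 2.34 ± 0.21 for het vs WT (adjusted p = 0.000144) by edgeR. The interaction, γδ minus αβ for homo vs WT on the log2 scale, came from a joint fit of both classes and was -2.19 ± 0.65 beside a median of -1.01 over the 8114 genes of that fit, and did not pass (adjusted p = 0.460). With RLE size factors it passed (-1.43 ± 0.33 beside a median of -0.46, adjusted p = 0.0355).

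**Figure D4:**
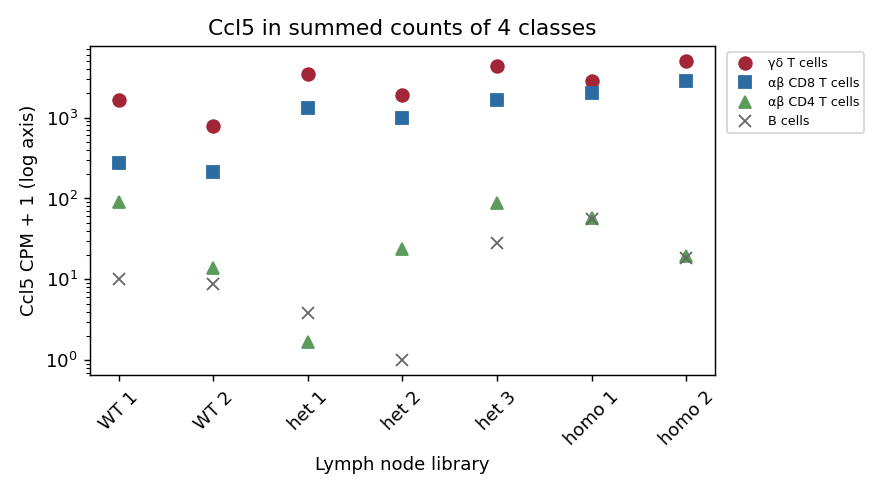
Ccl5 in CPM + 1 (log axis) for summed counts of γδ T cells, αβ CD8 and CD4 T cells and B cells of each LN library. γδ T cells lie at 1649 and 781.3 CPM in WT and at 1880.5 to 5006 in the 5 Y665F libraries, above αβ CD8 T cells in each library.

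Few other genes were called. The low count filter kept 269 genes, and 1 was called for homo vs WT (0.372%), 4 for het vs WT (1.49%) and 0 for homo vs het (0.00%) at adjusted p below 0.05 and an absolute log2 fold change over 1. Unadjusted p was below 0.05 for 30 (11.2%), 24 (8.92%) and 17 (6.32%) genes, and DESeq2 called 0 genes in all 3 comparisons, with 13, 5 and 5 genes at unadjusted p below 0.05. The median log2 fold change over the 269 genes was -0.14, 0.00 and -0.03.

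Beside Ccl5, Hmgb2, Vim and Crip1 were called lower in het vs WT. The call was lost in 8 of 14 alternatives for Hmgb2, 12 of 16 for Vim and 13 of 16 for Crip1. Hmgb2, a chromatin protein of dividing cells, was at 412.3 and 1406 CPM in WT and at 74.5, 171.0 and 810.4 in het (log2 fold change -2.95 ± 0.63, adjusted p = 0.0329, edgeR). Vim was at 647.9 and 1758 in WT and 385.1, 410.3 and 1080.5 in het (-1.69 ± 0.42, adjusted p = 0.0412). Crip1, a LIM domain protein, was at 1060.1 and 1641 in WT and 608.7, 376.1 and 0 in het (-1.62 ± 0.40, adjusted p = 0.0412). The libraries overlap for Hmgb2 and Vim but not for Crip1, and 29 of 269 genes (10.8%) were lower without overlap in het vs WT. The 0 of Crip1 is in het 3, where 3 UMIs are worth 810.4 CPM.

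These falls moved with the 7 cells of WT 2 with 3 or more core genes, and in summed counts fewer cells of a type and less RNA per cell cannot be told apart. Those cells held 69 of the 72 Hmgb2 UMIs of WT 2 (95.8%), 78 of its 90 Vim UMIs (86.7%) and 67 of its 84 Crip1 UMIs (79.8%). With the 11 cells of 3 or more core genes left out, 0 of 261 genes were called in each of the 3 comparisons by edgeR (24, 7 and 22 at unadjusted p below 0.05). The het vs WT change was then -0.64 for Crip1 and -0.31 for Vim, and Hmgb2 was not tested. Without WT 2 it was -1.16 for Crip1, -0.63 for Vim and -1.50 for Hmgb2, and 0 genes were called as well, whereas without WT 1 it was 9 for homo vs WT and 23 for het vs WT.

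For homo vs WT the genes next in line did not pass. Junb, an AP-1 factor, was at 589.0 and 781.3 CPM in WT and 353.9 and 3223 in homo (log2 fold change 1.65 ± 0.46, adjusted p = 0.111). Cd52, a surface glycoprotein of lymphocytes, was at 2179 and 2305 in WT, 1639.7, 1197 and 1351 in het, then 1062 and 960.0 in homo (-1.33 ± 0.38, adjusted p = 0.111), with all 5 Y665F libraries below both WT libraries. Ifngr1, a chain of the interferon-γ receptor, was at 176.7 and 195.3 in WT and 1062 and 1097 in homo (2.35 ± 0.69, adjusted p = 0.120), and het 3 had no UMI of it. Rpl37, Gm42418, Rpl9, Pabpc1, Vim and Crip1 complete the 10 of lowest p, with log2 fold changes of -1.25, 0.94, 0.83, -2.24, -2.07 and -1.97 and adjusted p of 0.111 to 0.142.

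Gene lists were sparse after the filter. Of 25 type-1 and cytotoxic genes 4 could be tested. Ccl5 rose, and Ctsw, Ly6c2 and Nkg7 did not pass (-1.13, 0.86 and -0.25, homo vs WT), for a median of 0.31 beside -0.14 over all genes. The list summed to 6184 and 2734.5 CPM in WT, 7329, 6018 and 8374 in het, then 8493 and 8640.2 in homo. Without Ccl5 the sums were 4535 and 1953 in WT, 3838, 4137 and 4052 in het, then 5662 and 3634 in homo, and only homo 1, with 16 UMIs of these genes, was above both WT libraries.

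Of 13 naive and recirculation genes 4 were tested and 0 called (Il7r 0.46, Klf2 0.15, Tcf7 -0.15 and Lef1 -0.12, homo vs WT), and the summed level ran from 3457 to 5595 CPM with overlap of all genotypes. Of 10 proliferation genes only Hmgb2 was tested, and the sum was 706.8 and 3438 in WT, 173.9, 239.3 and 1080.5 in het, then 353.9 and 137.1 in homo. Of 20 memory and activation genes S100a6 alone was tested (-0.40), with sums of 3004 and 6563 in WT, 3155, 1846 and 2971 in het, then 1062 and 2126 in homo. Of 15 interferon genes in the files 0 were called, and the sum of 4684 in het 2 was the highest, the other 6 lying between 1351 and 3360.1.

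Of 15 cytokine receptor genes Il7r and Il2rg (the common γ chain) were tested and 0 called (0.46 and 0.27). Of 22 JAK-STAT and survival genes 0 were called (Jak1 0.14 and Mcl1 0.12). Of 16 STAT5 target genes named in the study from other assays 0 were called, and their sum was 1119 and 976.6 CPM in WT, 1553, 1709.6 and 1080.5 in het, then 2831 and 2126 in homo. Of 17 γδ lineage genes 0 passed the filter.

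The edited gene itself could not be compared at this depth. Stat5b (chr11:100780731-100850724) had 1 and 9 UMIs in WT, 7, 2 and 0 in het, then 0 and 0 in homo members. Its neighbour Stat5a had 0 and 1, then 3, 3 and 0, then 0 and 2. The edit changes a codon and not the amount of RNA by design, so these counts do not check the labels.

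Cd163l1 had the smallest p of the interaction, a difference between γδ and αβ T cells that depended on WT 2. In γδ T cells it was at 58.9 and 820.3 CPM in WT, 173.9, 0 and 270.1 in het, then 0 and 822.9 in homo, which is 1, 42, 14, 0, 1, 0 and 12 UMIs. In αβ T cells it was at 2.66 and 3.34 CPM in WT, 18.4, 13.5 and 29.5 in het, then 46.0 and 37.9 in homo. The γδ values overlap between genotypes, while each αβ value of a Y665F library is above both WT values. The homo vs WT change was 3.77 ± 0.29 on the log2 scale in αβ T cells (adjusted p = 6.16e-06) and 0.09 ± 0.90 in γδ T cells (adjusted p = 0.982), by edgeR. The interaction that follows has an SE of 0.60, smaller than the 0.90 of γδ T cells alone. Its p therefore does not measure the spread between γδ libraries alone.

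In the joint fit of γδ and αβ sums, which is scaled separately and so does not give the difference of the printed changes, the interaction was -4.21 ± 0.60 for Cd163l1 (adjusted p = 2.44e-08), beside a median of -1.01 over the 8114 genes of this fit, of which 4 were called (0.0493%), all with the lower change in γδ T cells, and 261 had an unadjusted p below 0.05 (3.22%). Without WT 2 the difference was -0.75 ± 1.88 (adjusted p = 1), and without the 11 cells of 3 or more core genes, which hold 60 of the 70 Cd163l1 UMIs of members, it was -1.06 ± 2.11 (adjusted p = 0.941). Without homo 2, which leaves only homo 1 with 0 UMIs, the fitted value, which is no bound, was -17.14 (adjusted p = 1.15e-07). γδ T cells held 51.9% of all Cd163l1 UMIs in WT 2 and 5.56% in WT 1, and 5.19%, 0% and 1.92% in het and 0% and 6.22% in homo. αβ T cells held 32.1% in WT 2, 9 of the 18 UMIs in WT 1 and 61.1% to 87.4% in the 5 Y665F libraries.

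The other 3 genes were Lgals1, Tcrg-C1 and Hist1h1b (a linker histone of dividing cells). Lgals1 was at 235.6 and 1953 CPM in WT and 0 and 274.3 in homo γδ T cells, and at 120.5 and 93.7 in WT and 176.7 and 196.3 in homo αβ T cells (-3.87 ± 0.85, adjusted p = 0.0162). Tcrg-C1 had 0 and 17 UMIs in WT, 14, 2 and 0 in het, then 0 and 2 in homo γδ T cells, and its αβ level went from 1.18 and 0.641 to 12.0 and 6.94 CPM (-5.07 ± 1.12, adjusted p = 0.0162). Hist1h1b had 43 UMIs in WT 2, all in its 7 cells of 3 or more core genes, and 0 in the 6 other libraries, so its fitted change is set by WT 2 and no fold is given (adjusted p = 0.0280). None of the 3 was called without the 11 cells of 3 or more core genes, but the Lgals1 difference was still -3.61 (adjusted p = 0.885, edgeR). Tcrg-C1 then has no homo UMI, so its fitted -12.62 is no bound. Without WT 2 the difference was -1.12 for Lgals1, and the fitted Tcrg-C1 value was of opposite sign. Over 14 alternatives the call was kept in 6 for Lgals1, 3 for Tcrg-C1 and 3 for Hist1h1b.

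**Figure D5:**
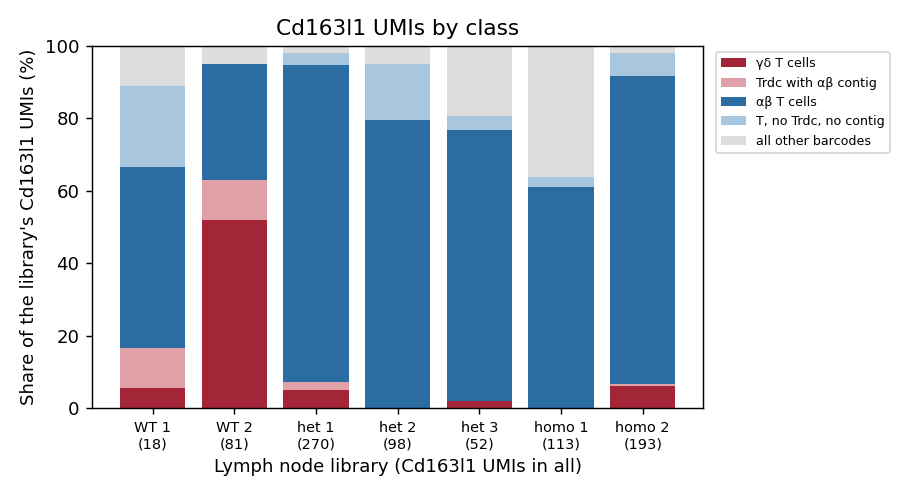
Share of the Cd163l1 UMIs of each LN library that lie in γδ T cells, in Trdc-positive cells with an αβ contig, in αβ T cells, in T cells with neither, and in all other barcodes, with the library's total in brackets. γδ T cells hold 51.9% in WT 2 and at most 6.22% in the other 6 libraries.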

How the data were processed

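LN libraries of the 10x Genomics Chromium platform were used, with the matched αβ receptor tables. The authors aligned the reads and deposited filtered UMI count matrices, which are raw counts per gene and barcode, made with Cell Ranger 5.0.0 per the file headers on mm10. The labels name a 3′ kit and the study's methods a 5′ kit. The labels also name Seurat 4.0, of which no output was used. The deposited receptor tables list TRA and TRB contigs only.

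Members were summed per library. edgeR 4.0.16 (R 4.3.3; TMM, filterByExpr, quasi-likelihood test, all 7 libraries in 1 model with genotype) gave log2 fold changes with Benjamini-Hochberg adjusted p. The interaction fit used member and αβ T cell sums (CD3-positive, Cd79a-negative, Trdc-negative, with a contig) with library as a block. Genes of the rule stayed in library sizes and out of tests. CPM is over the summed UMIs of a class. DESeq2 1.42.0 was an alternative. No doublet caller was run, and barcodes with Cd79a were left out. On simulated counts (biological coefficient of variation 0.15), recovery was counted only among changed genes that were in the fit. For homo vs WT (304 genes in the fit), 19 of 22 genes changed 4-fold (86.4%) and 55 of 55 changed 16-fold (100%) were recovered. There 4 unchanged genes were called too. Changed genes that are not in the fit cannot be recovered and are not in these percentages. The low count filter was applied after the change, so genes raised in homo could enter the fit through that rise. The percentages of this fit therefore do not carry over to the genes tested in the data. In the interaction fit (8277 genes), 0 of 100 genes changed 4-fold and 24 of 100 changed 16-fold were recovered, so that fit misses most changes at this depth. As the numbers of changed genes differ, the percentages of the member fit and the interaction fit cannot be set against each other.

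Named genes are the called ones, the 10 of smallest p for homo vs WT (as under 5 were called), the called interaction genes, the rule genes and receptor segments, and up to 4 per list past the filter. Genes named beside the group of 11 cells, or for their level against αβ T cells, were chosen after their values were seen. Members, lists and the group of 11 cells were chosen with earlier results of these data known. Deviations of same-numbered libraries from the group means correlated at -0.125 to -0.00505 over 269 genes. In a group of 2 libraries the deviations mirror each other, and the counts were small. These correlations therefore cannot tell whether the numbers pair the libraries. V segment ends and positions are from GENCODE vM21. Some genes of the lists are not reported here.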

Additional observations from a re-analysis of the deposited data

Results flagged for a closer look

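The homo vs WT change of 4 genes differed between γδ and αβ T cells by the interaction term of the edgeR fit. The difference, γδ minus αβ on the log2 scale, was -4.21 for Cd163l1, -3.87 for Lgals1, -5.07 for Tcrg-C1 and -13.24 for Hist1h1b, the last a fitted value with no UMI in either homo library. WT 2 held 42 of 70, 100 of 158, 17 of 35 and 43 of 43 of the members' UMIs of these genes. Groups of 2 and 3 libraries were too small to look for single libraries that stand apart.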

How the results depend on the processing

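The γδ share of T cells gave no call in the 12 alternatives whose exact permutation test could pass the threshold. Without het 3 and homo 1 the smallest possible exact permutation p is 0.0667, so that alternative could give none. Over all 13 alternatives homo minus WT lay between -0.445 and -0.105 percentage points. The homo vs het count stayed at 0 in all 16 alternatives. The other counts moved by over 1.5 times in 12 of 16 alternatives for homo vs WT, 13 of 16 for het vs WT and 10 of 14 for the interaction. For homo vs WT (1 gene) the count was 0 with at least 2 Trdc UMIs per member, without het 3 and homo 1, without a low count filter and with DESeq2, and 0 to 9 when 1 library was left out. For het vs WT (4 genes) it was 8 with at least 2 Trdc UMIs, 1 among members with no Trac UMI, 0 without het 3 and homo 1, 9 without a filter, 0 with DESeq2, and 0 to 23 when 1 library was left out. For the interaction (4 genes) it was 1 with at least 2 Trdc UMIs, 8 with contig-bearing members kept, 2 without a filter, and 0 to 7 when 1 library was left out. Without the 11 cells of 3 or more core genes, an alternative chosen after seeing the data, it was 0 for homo vs WT, 0 for het vs WT and 0 for the interaction. The fitted Tcrg-C1 interaction was -15.63 without homo 2 and 7.16, of opposite sign, without WT 2, and neither is a bound, since the homo or WT library that is left has 0 member UMIs. With at least 2 Trdc UMIs, het 3 and homo 1 have no member. With the replicate number as a block, 5 genes were called for homo vs WT and 4 for het vs WT, but whether the numbers pair the libraries could not be told. Apart from the library, cell or filter each alternative removes, the cause of these moves was not tested. Depth limits all of this, since most genes fall under the filter.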
